A study of Mus musculus with 2 samples.

Results

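The 9 genes described here belong to the glucocorticoid, bone morphogenetic protein (BMP) and peroxisome proliferator-activated receptor (PPAR) pathways of stress erythropoiesis. They are Nr3c1, Zfp36l1, Zfp36l2, Tsc22d3, Fkbp5, Per1, Bmpr1a, Bmpr2 and Ppara, chosen by name from the 20660 genes that could be named on the array, and 12 probes carried a transcript accession of one of them. Their transcripts were measured in pre CFU-E, an erythroid progenitor fraction (Lin-, FCgRII/III low or negative, CD41 low, c-Kit+, Sca1-, endoglin+, CD150+) sorted from the bone marrow of C57BL/6 mice, either wild type (WT) or lacking the endothelial cell-selective adhesion molecule (ESAM-KO). All mice of the study were 8 to 12 weeks old, and mice of both genotypes had received a single injection of 120 mg/kg of the antimetabolite 5-FU 8 days before, so that no untreated group was measured. The knockout was not limited to a cell type, and bone marrow cells of 3 mice per genotype were pooled before the sort. Each pool was hybridised to 1 array, so no value below has a replicate, an SD or a p-value. A difference between the pools and a difference due to genotype cannot be told apart.

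Erythropoiesis under stress is known to depend on signals that keep early erythroid progenitors dividing before they mature. Glucocorticoids act through the glucocorticoid receptor, the product of Nr3c1, and favor the self-renewal of burst-forming progenitors, for which the mRNA-destabilizing zinc finger protein Zfp36l2 is needed. PPAR alpha, the product of Ppara, is a fatty acid-sensing nuclear receptor whose agonists add to this glucocorticoid effect, and BMP4, acting through type I and type II receptors such as Bmpr1a and Bmpr2, expands stress progenitors in the mouse spleen.

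Log2 intensities were compared after subtraction of the 75th percentile of the array, an intensity of 201.4 for WT and 251.1 for ESAM-KO. Ratios are of ESAM-KO over WT, and the scaling subtracts 0.32 from each of them on the log2 scale. A probe was read as expressed where the scanner software marked it as well above background, for which the lowest intensity was 12.6 in WT and 13.2 in ESAM-KO. The error given for a ratio is that of the scanner software, which covers the noise of the spots and not that of the mice, the sort or the amplification. The single probe of Esam itself read 27.4 with WT cells and 20.6 with ESAM-KO cells, giving a log2 ratio of -0.73 with an error of 0.31, so that the array checks the genotype only weakly. All 10 erythroid markers examined were well above background in both genotypes, among them Gata1 and Klf1 at log2 ratios of -0.34 and -0.32. Slc4a1 and Rhd, which encode proteins of the red cell membrane, were lower by more than 2-fold in ESAM-KO, at -2.87 and -1.49. Of the 7 sort markers, 5 were well above background in both genotypes, namely Kit, Eng, Slamf1, Itga2b and Fcgr3. Fcgr3 belongs to the FCgRII/III that the gate kept low or negative, and its log2 ratio was -0.17. Ly6a, which encodes Sca1, was not well above background in ESAM-KO, with intensities of 61.1 for WT and 12.3 for ESAM-KO.

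The glucocorticoid receptor gene and its target Tsc22d3 were the 2 members more than 2-fold lower in ESAM-KO, and no member was higher by more than 2-fold. Of the 8 members with a ratio, 6 were within 2-fold, and their log2 ratios lay between -0.18 and 0.14, each smaller in size than its scanner error. Over all 14144 named genes with a ratio, 8.43% were lower and 6.99% higher by more than 2-fold, which together is 15.4%. Among the 12615 genes well above background in both genotypes, as all 8 members were, these shares were 7.37%, 5.22% and 12.6%. The members' share of 2 in 8 therefore exceeds that of all genes by about a single gene and is not read as particular to them. The median log2 ratio was 0.08 over the 8 members and 0.00 over all named genes. Both calls depended on the scaling. With unscaled arrays 0 of the 8 members were past 2-fold, beside 5.12% of named genes lower and 12.7% higher (17.8% in all). Each of the 6 members within 2-fold changed sign under some alternative processing, Bmpr2 only after normexp and quantile normalization, at -0.01.

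**Figure D1:**
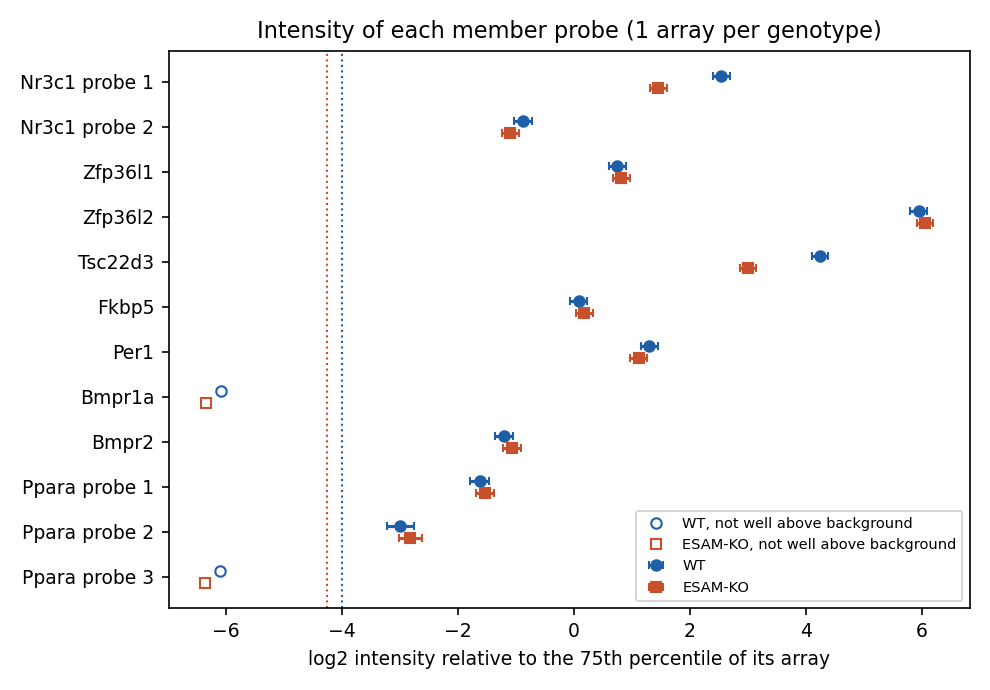
Log2 intensity of the 12 member probes relative to the 75th percentile of each array, with WT as circles, ESAM-KO as squares and bars for the scanner error. Open symbols are probes not well above background, dotted lines mark the lowest intensity well above background on each array, and the genotypes are to be compared within a row, where the first Nr3c1 probe and Tsc22d3 are lower in ESAM-KO beyond their bars and the bars of the other filled symbols overlap.

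Tsc22d3 encodes the glucocorticoid-induced leucine zipper protein, a direct target of the receptor that is widely read as a gauge of glucocorticoid action. Its single probe (NM_001077364) read 3818 with WT cells and 2020 with ESAM-KO cells. The level was therefore lower in ESAM-KO both before and after scaling, with a log2 ratio of -1.24 and an error of 0.20, or 2.36-fold lower. The ratio was -0.92 without scaling, which is within 2-fold, and lay between -1.37 and -1.22 under all other alternatives. Among the 1683 named genes with a mean signal within 2-fold of that of Tsc22d3, 2.26% were lower in ESAM-KO past the criterion and 0.832% were higher, together 3.09%.

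Nr3c1 had a pair of probes with the same accession (NM_008173), which differed. The brighter one read 1177 with WT cells and 690.8 with ESAM-KO cells, giving a log2 ratio of -1.09 with an error of 0.20, or 2.12-fold lower. The dimmer one read 110.0 with WT cells and 117.6 with ESAM-KO cells, giving a log2 ratio of -0.22 with an error of 0.21. The ratios of the probes were apart by 0.87, against a combined scanner error of 0.29, so that only the brighter probe places the receptor past 2-fold. A gap at least as wide between the 2 brightest probes was found for 24.9% of the 3056 genes with such probes, and the median gap was 0.41. Of the 219 genes of this kind whose brighter probe was lower by more than 2-fold, the next probe was also past 2-fold for 52, lower within 2-fold for 83 and higher for 84. The mean of both Nr3c1 probes was -0.65, and without scaling the brighter probe was at -0.77 and the dimmer at 0.10. Among the 2865 named genes with a mean signal within 2-fold of that of Nr3c1, 4.43% were lower and 2.34% higher past the criterion, together 6.77%.

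**Figure D2:**
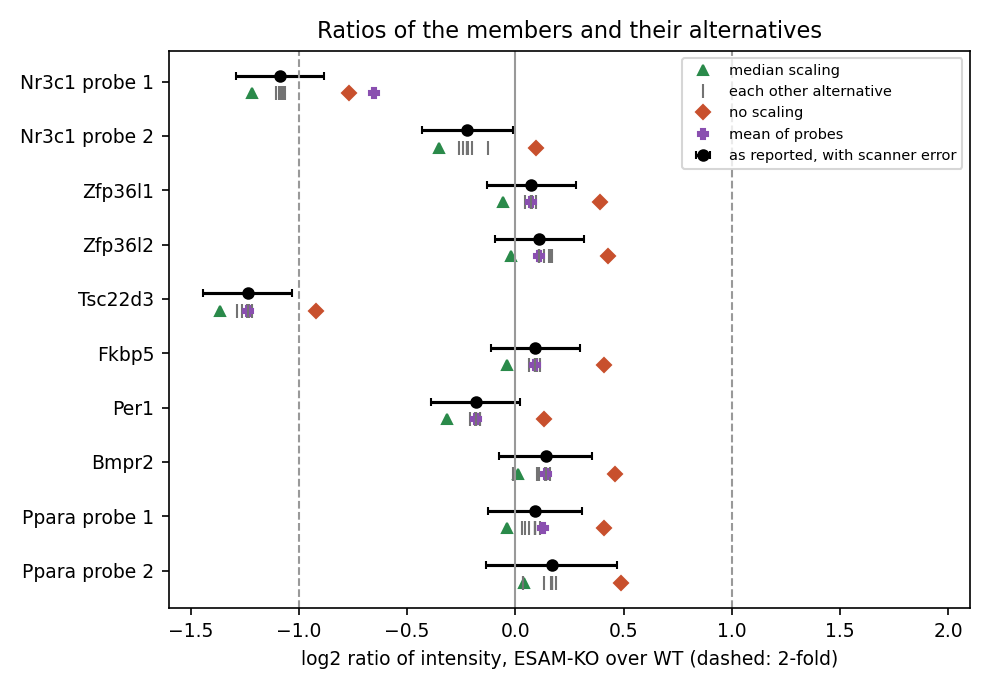
Log2 ratio of ESAM-KO over WT for the 10 member probes above background, as black points with scanner error bars, and below each the value under every alternative processing. Dashed lines mark 2-fold, and the first Nr3c1 probe and Tsc22d3 lie left of the line except without scaling (diamonds, -0.77 and -0.92) and, for Nr3c1, with the mean of probes (-0.65).

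Neutrophil markers and most B cell markers were lower in ESAM-KO, as were Tsc22d3 and the brighter Nr3c1 probe. Both genes are also expressed in granulocytes and lymphocytes, but expression of the members in such cells was not measured here. The other members with a ratio were within 2-fold. All 11 neutrophil markers were more than 2-fold lower in ESAM-KO, from -4.20 for Ltf to -1.16 for Mmp8, and well above background in both genotypes. Their summed intensity was 59043 in WT and 10099 in ESAM-KO, 7.29-fold lower after scaling. Of the B cell markers, 5 of 8 with a ratio were lower by more than 2-fold. Only 4 of the 8 were well above background in both genotypes, of which 2 were lower past 2-fold, and the other 4 ratios were bounds. With normexp 1 of the 8 was lower past 2-fold. The summed intensity of the B cell markers was 615.4 in WT and 238.6 in ESAM-KO. For T and NK cells, 1 of 4 was lower past 2-fold and the other 3 were above 0, the summed intensity was 810.3 in WT and 1330 in ESAM-KO, and Cd3g, Cd8a and Il7r were not above background in either genotype. Past 2-fold, 2 of 4 markers of mast cells, basophils and eosinophils were lower and 1 higher, as were 2 and 1 of 7 for megakaryocytes, 1 and 1 of 5 for macrophages, and 1 and 1 of 6 for endothelial cells. The part of such cells in the ratios of the members was not tested, and in a sorted pool fewer cells of a type and less RNA per cell cannot be told apart.

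Fkbp5 and Per1, a further pair of established targets of the receptor, did not follow Tsc22d3 past 2-fold. Fkbp5, a co-chaperone that lowers the affinity of the receptor for its hormone, read 214.5 with WT cells and 284.9 with ESAM-KO cells (NM_010220). This is a log2 ratio of 0.09 with an error of 0.21, and the value was -0.04 with scaling to the median and 0.41 without scaling. Per1, a repressor of the circadian clock that glucocorticoids also induce, read 496.9 with WT cells and 545.4 with ESAM-KO cells (NM_011065), a log2 ratio of -0.18 with an error of 0.20, or 0.13 without scaling. The difference between Tsc22d3 and either gene was larger than their scanner errors and is the same under any scaling that moves every ratio alike.

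For each of these 3 targets, the promoter window that held a searched motif is shown. The other windows of Tsc22d3 and Per1 held none of the motifs and are not shown. A relation between motifs and ratios was not tested. The windows cover 250 bases before to 50 bases after a start and come from RefSeq annotation of build GRCm38.p6. For the members, 10 windows of 7 genes were searched. The full glucocorticoid response element, taken as AGAACA and TGTTCT with 3 bases between them and searched on both strands, was in none of the 10, and in 0.00914% of all 32817 windows. Its shorter part TGTTCT, searched on both strands as TGTTCT or AGAACA and contained in the full element, was in 1 of the 3 windows of Tsc22d3, in the single window of Bmpr2, and in 19.0% of all windows. The E-box CACGTG, the same on both strands, was in the single window of Fkbp5, in 1 of the 2 windows of Per1, and in 7.15% of all windows. The files do not tie the array probes to one start, and a motif match does not show that a factor binds there. Capitals mark TGTTCT in the first sequence and CACGTG in the others.
Tsc22d3, chrX:140600473-140600772, minus strand: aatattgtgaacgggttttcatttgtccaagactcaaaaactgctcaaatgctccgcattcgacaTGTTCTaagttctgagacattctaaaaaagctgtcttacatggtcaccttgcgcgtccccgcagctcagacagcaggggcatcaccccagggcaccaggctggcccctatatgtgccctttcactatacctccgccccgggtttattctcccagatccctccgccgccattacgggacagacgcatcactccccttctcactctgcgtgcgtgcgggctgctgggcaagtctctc
Fkbp5, chr17:28486100-28486399, minus strand: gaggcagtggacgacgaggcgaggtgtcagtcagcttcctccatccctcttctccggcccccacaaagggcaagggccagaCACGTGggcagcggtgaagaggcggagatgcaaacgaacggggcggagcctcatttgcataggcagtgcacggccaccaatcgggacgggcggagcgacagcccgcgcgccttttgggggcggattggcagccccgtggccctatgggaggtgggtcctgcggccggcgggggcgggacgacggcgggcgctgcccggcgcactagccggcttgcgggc
Per1, chr11:69098699-69098998, plus strand: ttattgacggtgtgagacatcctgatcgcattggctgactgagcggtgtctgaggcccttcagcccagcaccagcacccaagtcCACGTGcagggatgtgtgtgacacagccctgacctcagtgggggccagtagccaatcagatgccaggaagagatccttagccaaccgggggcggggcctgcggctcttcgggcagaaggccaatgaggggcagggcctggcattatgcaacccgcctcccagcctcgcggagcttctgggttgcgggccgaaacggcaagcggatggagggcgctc

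Zfp36l1 and Zfp36l2 encode zinc finger proteins that bind AU-rich elements and speed the decay of their target mRNAs, and the log2 ratio of both was smaller than its scanner error. Zfp36l2 (NM_001001806), the family member required for the self-renewal of burst-forming progenitors, read 12408 with WT cells and 16716 with ESAM-KO cells. The log2 ratio was 0.11, with a scanner error of 0.20. Zfp36l1 (NM_007564) read 338.8 with WT cells and 444.6 with ESAM-KO cells, giving a log2 ratio of 0.07 with an error of 0.20. Both intensities were higher in ESAM-KO before scaling, with unscaled differences of 0.43 and 0.39, and with scaling to the median the ratios were -0.02 and -0.06. Zfp36 itself, the tristetraprolin gene and no member, read 2793 with WT cells and 5152 with ESAM-KO cells, and its log2 ratio of 0.57, within 2-fold, was larger than its scanner error of 0.20. It is named here after its value was seen.

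Of the BMP receptors, the type II receptor Bmpr2 (NM_007561) read 87.5 with WT cells and 120.3 with ESAM-KO cells, giving a log2 ratio of 0.14 with an error of 0.22. The ratio was 0.46 without scaling and -0.01 after background correction by normexp. The type I receptor Bmpr1a (NM_009758) read 2.97 with WT cells and 3.10 with ESAM-KO cells. Neither value was well above background, so no ratio is given for Bmpr1a, and at this signal a difference in the transcript was not detectable.

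Ppara (NM_011144) was read by 3 probes, of which 2 were well above background in both genotypes. The brightest probe was printed as 2 spots, which read 66.5 and 64.3 in WT and 86.1 and 87.6 in ESAM-KO, and their mean gave a log2 ratio of 0.09 with an error of 0.22. The second probe read 25.4 with WT cells and 35.6 with ESAM-KO cells, giving a log2 ratio of 0.17 with an error of 0.30. These probes were apart by 0.08, less than their combined scanner error of 0.37, and both moved to higher values without scaling, 0.41 and 0.49. The remaining probe read 2.93 and 3.08, not well above background in either genotype.

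**Figure D3:**
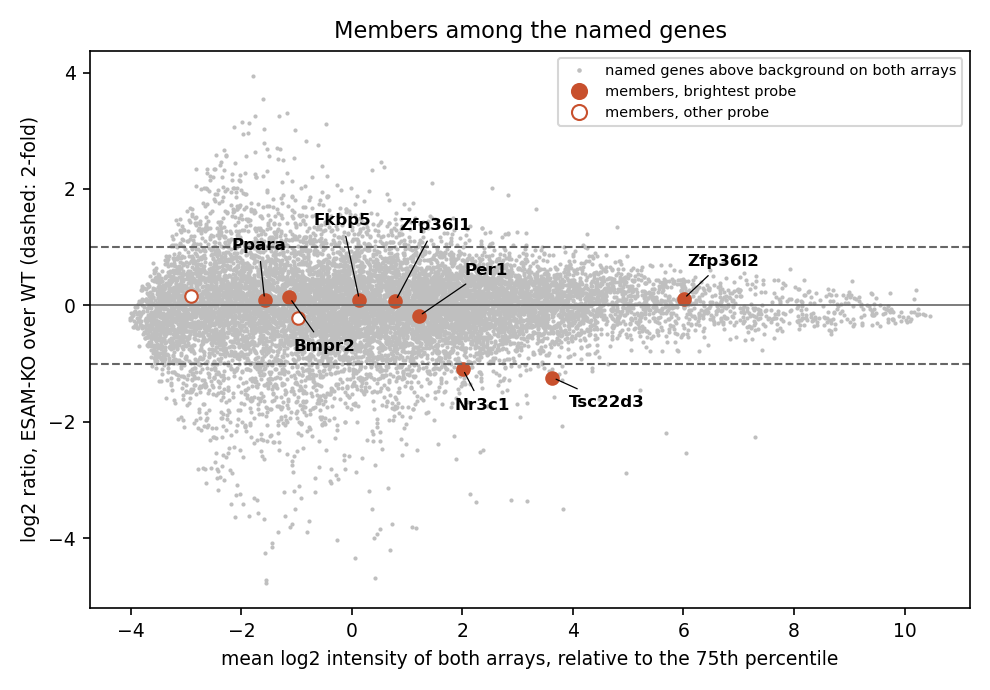
Log2 ratio of ESAM-KO over WT against the mean log2 intensity of both arrays, for the named genes well above background on both arrays (gray), the brightest probe of each of 8 members (filled) and the second probe of Nr3c1 and Ppara (open). Dashed lines mark 2-fold, and Nr3c1 and Tsc22d3 lie below the lower line while the other members lie near 0.

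The other genes of these pathways were described from 11 lists, by the number past 2-fold and the median, beside 15.4% and 0.00 for all named genes. A gene whose bound was under 2-fold was not counted as past it, and its bound entered the median. Among 18 further glucocorticoid-induced genes, 15 had a ratio, of which 3 were lower and 1 higher by more than 2-fold, and the median log2 ratio was -0.43. The median was below 0 under every alternative, from -0.56 with median scaling to -0.12 without scaling, where 9 of the 15 were lower instead of 11. Anxa1, which encodes the anti-inflammatory protein annexin A1, was lower at both probes, with log2 ratios of -1.48 and -1.91. Per2, a clock repressor and relative of Per1, read 181.3 with WT cells and 86.8 with ESAM-KO cells, giving a log2 ratio of -1.38 with an error of 0.21. Sgk1, a kinase that glucocorticoids induce, was at -1.08, and at -0.77 without scaling. Zbtb16, a zinc finger transcriptional repressor, moved the other way, from 50.6 in WT to 427.1 in ESAM-KO, a log2 ratio of 2.76 with an error of 0.22, and was past 2-fold under all alternatives. The metallothionein gene Mt2, the brightest of the list, was at 0.15.

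The list of chaperones and coregulators of the receptor also held the mineralocorticoid receptor gene Nr3c2 and the steroid-converting enzyme genes Hsd11b1 and Hsd11b2. Of its 17 genes, 1 was lower and 1 higher past 2-fold, with a median of 0.05. Both of these genes are p160 coactivators of nuclear receptors, and in both the probes disagreed. Ncoa1 was at -2.22 at its brightest probe and at -0.53 at the next. Ncoa3 was at 1.09 at the probe with the highest mean signal and at -0.52 at another, and within 2-fold with scaling to the median, at 0.96. The chaperone Hsp90ab1, the brightest of the list, read 54737 with WT cells and 71785 with ESAM-KO cells, giving a log2 ratio of 0.07. Of the 15 relatives of Zfp36 and factors of mRNA deadenylation and decapping, only the decapping cofactor Dcp1b passed 2-fold, with -2.81 for the brighter probe and -1.09 for its second probe. The poly(A)-binding protein gene Pabpc1, the brightest of these, was at -0.38, and the list had a median of -0.10.

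In the BMP pathway, the 12 other receptors, Smads and their ubiquitin ligases with a ratio were all below 0, with a median of -0.29. However, 7 of the 12 were above 0 without scaling, and 2 with the mean of probes. Smurf1, a ubiquitin ligase that targets BMP Smads and receptors, was the only one lower by more than 2-fold at the probe that represents the gene. It read 650.5 with WT cells and 243.2 with ESAM-KO cells, giving a log2 ratio of -1.74 with an error of 0.20, and stayed past 2-fold without scaling, at -1.42. Its relative Smurf2, the brightest of the list, was at -0.34 at the brightest probe and at 0.78 and 0.69 at 2 others. Smad5 was at -0.09 at the probe with the highest mean signal and at -1.44, past 2-fold, at another. Acvr1 was at -0.06 at its brighter probe and at 0.69 at a dimmer one. Of the 14 ligands and antagonists, 8 had a ratio, with a median of 0.53, or 0.27 with normexp, and Bmp2 was the one shown to pass 2-fold. The ratios of Gdf15 and Bmp6 were bounds, at least 0.95 and 0.58 higher on the log2 scale, so that these genes are not shown to be within 2-fold. With no filter on dim probes, 3 of the 14 were higher and 1 lower past 2-fold. Bmp2 was dim, at 28.2 with WT cells and 70.8 with ESAM-KO cells, giving a log2 ratio of 1.01, and was within 2-fold with scaling to the median, at 0.88. Bmp10, the brightest ligand probe, was at 0.35.

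Of the 12 BMP target genes, 7 had a ratio and 1 passed 2-fold, with a median of -0.01. Hey1, a transcriptional repressor induced by BMP and Notch signals, was not well above background in WT, at 3.32, and read 136.2 in ESAM-KO. ESAM-KO cells were thus at least 8.69-fold higher, a bound taken against the lowest intensity well above background. The stem and progenitor factor Gata2, the brightest of these genes, was at -0.03. In the hedgehog pathway, which induces BMP4 in the stress response of the spleen, 6 of 11 genes had a ratio. The pathway inhibitor Sufu was lower at both probes, with log2 ratios of -1.77 and -1.50. The signal transducer Smo, the brightest, read 42590 with WT cells and 47776 with ESAM-KO cells, at -0.15. A second Smo probe was far dimmer, at 92.4 with WT cells and 71.2 with ESAM-KO cells, and its log2 ratio was -0.69. The median was 0.27 over these 6 genes and -0.11 over all 11 with no filter on dim probes, so that its direction depended on the filter.

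The list of PPAR and RXR receptors and coactivators also held the liver X receptor genes Nr1h2 and Nr1h3, and 8 of its genes had a ratio. Of these 8, 2 were higher and none lower past 2-fold, and the median was 0.66. With normexp the median was 0.22 and 0 of the 8 passed 2-fold. Ppard, which encodes PPAR delta, read 65.4 with WT cells and 185.9 with ESAM-KO cells, giving a log2 ratio of 1.19 with an error of 0.21. Nr1h2, a liver X receptor gene, was at 1.05, but at 0.92 with scaling to the median. The retinoid receptor gene Rxrb, the brightest, was at -0.03. Among 19 PPAR alpha targets with a ratio, 2 were higher, 1 lower and 16 within 2-fold, with a median of -0.14 that became 0.18 without scaling. The peroxisomal genes Pex11a and Ehhadh were at 1.54 and at least 2.88-fold higher, whereas the acyl-CoA thioesterase gene Acot1 was at least 3.46-fold lower. Acadvl, the brightest target probe and an enzyme of mitochondrial fatty acid oxidation, was at -0.28.

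**Figure D4:**
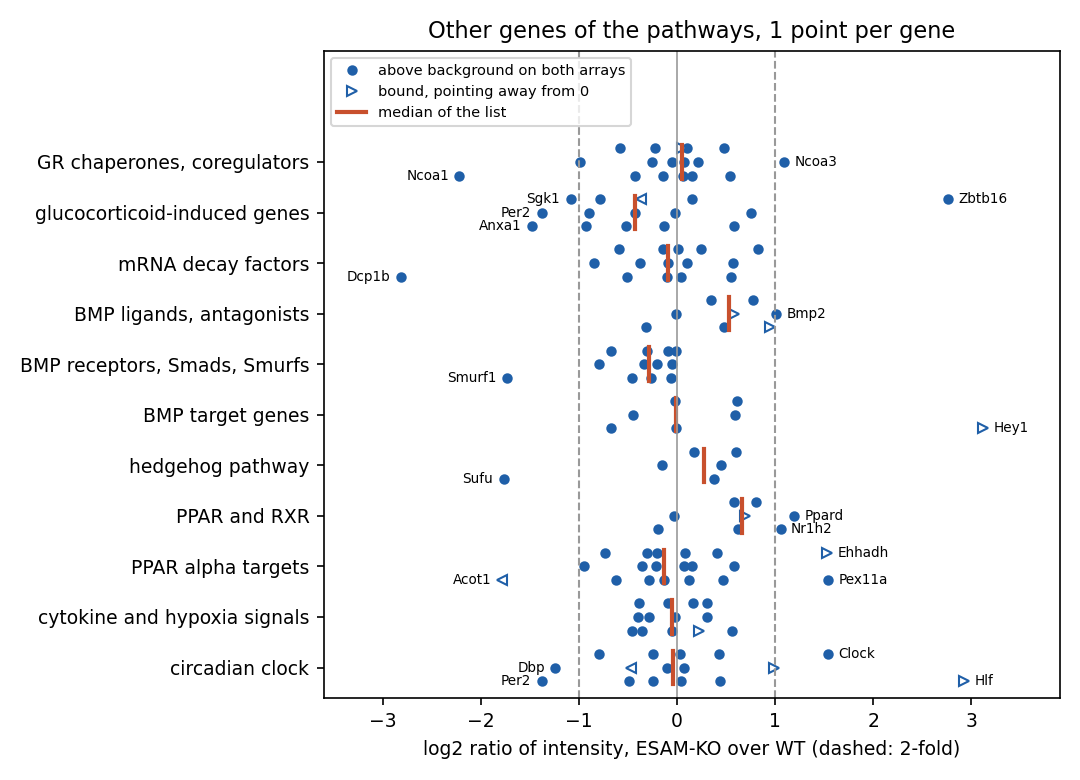
Log2 ratio of ESAM-KO over WT for each gene of the 11 pathway lists that had a ratio, 1 point per gene, with the median of each list as a vertical bar. Open triangles are bounds, dashed lines mark 2-fold, and genes past 2-fold are named, with Zbtb16, Hey1 and Hlf farthest to the right and Dcp1b and Ncoa1 farthest to the left.

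None of the 13 genes of cytokine and hypoxia signaling in stress erythropoiesis passed 2-fold, under the main scaling or any of the 12 alternatives. Of genes picked for their role after their values were seen, Kit, the stem cell factor receptor, was at -0.36, the erythropoietin receptor gene Epor at -0.10 and the transcription factor gene Myb at -0.29, whereas the hypoxia-inducible factor gene Epas1, the brightest, was at 0.30. The median of the list was -0.05. Of the 16 clock genes with a ratio, 2 were higher and 2 lower past 2-fold, with a median of -0.04. Dbp, a transcription factor driven by the clock, was at -1.24 and -1.05 at its probes, alongside Per2 at -1.38. Clock itself was dim and at 1.53, and Hlf was at least 7.58-fold higher. The kinase gene Csnk1d, the brightest, was at -0.11. Over all 11 lists, the genes still past 2-fold after normexp background correction were Zbtb16, Anxa1, Ncoa1, Dcp1b, Smurf1, Sufu, Hey1 and Hlf, whereas Per2, Sgk1, Ncoa3, Bmp2, Ppard, Nr1h2, Pex11a, Ehhadh, Acot1, Dbp and Clock were within it.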

How the data were processed

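Total RNA of the sorted cells was amplified (Ovation Pico WTA System V2) and labeled with Cy3, and 1 SurePrint G3 mouse array was hybridised per genotype, with a shared slide and scan. The authors deposited the intensity of every spot as given by Agilent Feature Extraction 10.10.1.1, background-subtracted and detrended, with no scaling between the arrays, and a series table with the same intensity rounded. No saturated spot was found. Control spots and 254 outlier spots were left out, log2 values of replicate spots were averaged, and above background means over 50% of the spots of a probe. Where it was so on 1 array only, the ratio is a bound against the dim array, at its own signal or at the lowest one well above background, whichever is higher. Accessions were matched without versions to RefSeq (GRCm38.p6, names only), which named 27235 of 55680 probes. A gene is represented by its brightest probe among those above background on at least 1 array. For the pathway lists, the text names each gene past 2-fold and the brightest, which ranks no transcript level. The members and lists were chosen with earlier results of these data known, and the values of some marker genes are not reported here. Precision is limited by the number of arrays. Python 3.11.15, pandas 2.3.3, numpy 2.4.6, R 4.3.3 and limma 3.58.1 were used, and the counting was tested on simulated data. Alternatives were no scaling, scaling to the median or to the 75th percentile of expressed probes, cyclic loess, quantile normalization alone or after normexp (median spot signals, offset 50), the series table, no filter on dim probes or one on both arrays, keeping outlier spots, averaging probes, a signal floor, and thresholds of 3-fold and 4-fold. Sequences of Nr3c1 are not reported here.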

Additional observations from a re-analysis of the deposited data

How the results depend on the processing

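Among 12 alternatives, leaving the arrays unscaled moved each member by more than its scanner error, to log2 ratios of -0.77 for Nr3c1, -0.92 for Tsc22d3, 0.13 for Per1, 0.39 for Zfp36l1, 0.43 for Zfp36l2, 0.41 for Fkbp5, 0.46 for Bmpr2 and 0.41 for Ppara. This follows from the construction, since scaling subtracts 0.32 from every ratio. The mean of probes moved Nr3c1 to -0.65 because its probes differ. The other values of these 8 members moved by less than that error. The number of members lower by more than 2-fold, 2, became 0 without scaling, 1 with the mean of probes, and 0 at 3-fold and at 4-fold, and no member was higher past 2-fold under any of them. For all named genes, 2181 past 2-fold became 722 with normexp, 4116 with no filter on dim probes, 821 at 3-fold and 449 at 4-fold. The 1192 lower became 729 without scaling, 486 with normexp, 2312 with no filter, 504 at 3-fold and 294 at 4-fold. The 989 higher became 1805 without scaling, 236 with normexp, 1804 with no filter, 659 with only probes above background on both arrays, 317 at 3-fold and 155 at 4-fold. Of the genes past 2-fold, 54.7% were lower, a share of 28.8% without scaling, 66.9% after scaling to the median and 67.3% with normexp. The median over all named genes moved to 0.31 without scaling and to -0.13 with median scaling. Of 132 medians of the 11 lists, 118 moved by less than the median scanner error of the list, and 11 of the other 14 were those without scaling. The other 3 were the hedgehog median with no filter, at -0.11, and with normexp those of the PPAR and RXR list, at 0.22, and of the BMP ligands, at 0.27. Without scaling the medians of the mRNA decay, BMP receptor, BMP target, PPAR alpha target, cytokine and clock lists turned from below to above 0. Signal over background limits Bmpr1a, which has no ratio. No paired analysis was possible because only 1 array was made per genotype.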
